A study of Homo sapiens with 6 samples.

Results

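The mitochondrial ribosomal protein genes were taken as every gene whose symbol in both count tables was MRPL or MRPS followed by a number and at most a letter from A to C, a choice by name that used no measured value. It gave 78 genes, 49 with a large-subunit (MRPL) and 29 with a small-subunit (MRPS) symbol, of 41471 gene symbols in the knockdown table and of 34157 in the drug table. The mitochondrial ribosome (mitoribosome) makes the few proteins encoded by mitochondrial DNA (mtDNA), which are core subunits of the respiratory chain and of ATP synthase. Its 2 rRNAs, MT-RNR2 of the large and MT-RNR1 of the small subunit, are transcribed from mtDNA, whereas all its proteins are encoded in the nucleus, made on cytosolic ribosomes and imported. Many of these proteins descend from bacterial ribosomal proteins, and others were added in mitochondria.

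The data were RNA-seq libraries of MDA-MB-231, a human triple-negative breast cancer cell line with mesenchymal features. In the first experiment the cells stably carried lentivirus with scramble shRNA (the control), CDK16-sh1 or CDK16-sh2, both hairpins being directed against the atypical cyclin-dependent kinase CDK16. In the second, cells without a hairpin were given vehicle (DMSO, the control) or rebastinib (Reb), a multi-target kinase inhibitor that also inhibits CDK16, at 1 μM or 5 μM for 48 h. Each condition was 1 library, so no difference between 2 libraries had a replicate check. How many clones or cultures a library stands for was not given in the sources used here.

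The libraries held 25838443 to 31955119 counts in the knockdown experiment and 37655548 to 50303269 in the drug experiment. Levels are given as RPKM (counts scaled by exon length and by the library's total). Differences are log2 fold changes of TMM-scaled CPM (counts relative to library size) with a prior count of 2, each treated library against its own control, over 15295 and 15655 genes whose mean was 1 CPM or more. All 78 genes passed that filter in both experiments, with 200 to 5157 counts per library in the first and 73 to 10040 in the second. Square brackets hold the 95% Clopper-Pearson interval of a log2 fold change, which covers counting error only and not the variation between cultures. CDK16 itself stood at 19.1, 6.52 and 4.72 RPKM with scramble shRNA, CDK16-sh1 and CDK16-sh2, and at 15.2, 14.3 and 11.4 RPKM with DMSO, 1 μM and 5 μM Reb. The mesenchymal markers VIM, CD44, AXL, CAV1 and MSN were detected in all 6 libraries, and 4 of 8 luminal markers, among them ESR1 and PGR, did not reach 1 CPM. KRT8, a luminal keratin on that list, was abundant at 85.8 to 179 RPKM.

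The 78 genes were expressed at unequal levels. The median was 13.4 RPKM with scramble shRNA (range 1.89 to 126) and 11.1 RPKM with DMSO (range 1.77 to 165). MRPS34, a mitochondria-specific small-subunit protein, was the most abundant in both controls. It was followed by MRPL12 (the stalk protein that receives the translation factors), MRPS26, MRPS10 and MRPL24, whose control levels averaged 70.4, 67.5, 49.3 and 45.5 RPKM. The least abundant were MRPL42, MRPS30, MRPL23, MRPL50 and MRPS33, with averages of 1.83 to 3.73 RPKM. RPKM divides by the length of all annotated exons, so a gene with long unused exons is given a low level.

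The controls of the experiments were compared in these genes as well. The median log2 difference in RPKM, DMSO minus scramble shRNA, was -0.40 over the 78 genes and -0.12 over 14414 genes tested in both experiments, and 9 of the 78 differed by at least 2-fold (11.5%, against 21.9% of those 14414 genes). MRPL41 (46.0 against 11.6 RPKM) and MRPS2 (20.9 against 5.99 RPKM) were furthest below. MRPS18C (9.44 against 17.8 RPKM) was furthest above. The standard deviation of this difference over the 78 genes was 0.56, which was larger than that of the log2 fold changes with CDK16-sh1 (0.35), CDK16-sh2 (0.40) or 1 μM Reb (0.24) and smaller than that with 5 μM Reb (1.18). The tables were normalised separately, so these are comparisons of levels set across tables and were not tested.

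Promoter sequences are shown for the 2 highest and 3 lowest genes in 5 μM Reb, and for MRPS23, the gene nearest to the threshold of the pooled test in CDK16-KD cells. The windows came from RefSeq (GRCh38.p14), held 250 bases before and 50 bases after an annotated start, and were found for 69 of the 78 genes. The motif CCGGAAG, as bound by ETS-family factors such as GABP, lay on either strand of a window in 30 of these 69 genes (43.5%), compared with 22.4% of 9989 tested genes and 12.2% of all 27305 genes with a window. AAGATGG, a core of the motif of YY1, lay in 24 of 69 (34.8%), against 9.58% and 7.11%. TATAAA was found in 3 of 69 (4.35%), against 8.28% and 14%. GCATGCG, part of the motif of NRF1, was found in 7 of 69 (10.1%), against 7.76% and 4.74%. A match is a description of the letters and not evidence of binding. Each line holds 120 bases before to 30 bases after the start, 5′ to 3′ on the gene's strand, with CCGGAAG or AAGATGG, or their reverse complements, in capitals:
MRPL44 (chr2:223957343-223957492, plus strand): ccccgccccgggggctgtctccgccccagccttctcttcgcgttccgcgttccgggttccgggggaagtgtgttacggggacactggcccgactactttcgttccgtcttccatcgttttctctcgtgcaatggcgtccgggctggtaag
MRPL33 (chr2:27771599-27771748, plus strand): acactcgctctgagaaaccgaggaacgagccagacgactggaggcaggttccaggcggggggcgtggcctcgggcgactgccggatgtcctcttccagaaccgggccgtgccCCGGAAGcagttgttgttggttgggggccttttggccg
MRPL45 (chr17:38297048-38297197, plus strand): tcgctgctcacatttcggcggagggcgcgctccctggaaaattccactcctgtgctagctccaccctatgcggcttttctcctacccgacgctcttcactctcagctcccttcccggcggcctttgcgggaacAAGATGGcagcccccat
MRPS18A (chr6:43687762-43687911, minus strand): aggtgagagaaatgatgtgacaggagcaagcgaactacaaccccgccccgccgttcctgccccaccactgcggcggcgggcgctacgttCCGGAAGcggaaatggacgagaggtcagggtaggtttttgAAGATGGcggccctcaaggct
MRPL9 (chr1:151763467-151763616, minus strand): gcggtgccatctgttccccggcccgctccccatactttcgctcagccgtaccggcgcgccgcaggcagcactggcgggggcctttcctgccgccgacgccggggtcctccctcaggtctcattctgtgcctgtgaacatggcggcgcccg
MRPS23 (chr17:57850015-57850164, minus strand): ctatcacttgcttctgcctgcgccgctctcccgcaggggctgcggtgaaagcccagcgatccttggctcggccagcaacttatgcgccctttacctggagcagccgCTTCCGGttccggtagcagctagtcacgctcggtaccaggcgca

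MRPS18A holds both motifs in this stretch and was among the lowest genes in 5 μM Reb, while MRPL33 holds the ETS motif and was among the highest. MRPL44 and MRPL9, at opposite ends of the same range, hold neither motif in the stretch. MRPL34, the next highest gene, has 4 windows, is not printed, and holds neither motif in the same stretch of any of them. Over the 69 genes, the 30 with the ETS motif had median log2 fold changes of 0.38, 0.38, 0.02 and -0.15 with CDK16-sh1, CDK16-sh2, 1 μM and 5 μM Reb, and the 39 without it had 0.35, 0.38, 0.07 and 0.09. The 24 with the YY1 motif had medians of 0.44, 0.30, 0.04 and -0.02 and the 45 without it 0.36, 0.40, 0.05 and -0.05.

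In CDK16-KD cells most mitochondrial ribosomal protein genes stood somewhat above the control with either hairpin. With CDK16-sh1 their median log2 fold change was 0.39 (1.31-fold), and 67 of 78 genes (85.9%) were above scramble shRNA, against 49.9% of all tested genes, whose median was 0.00. With CDK16-sh2 the median was 0.37 (1.30-fold), and again 67 of 78 were above, against 51.4% of all tested genes, whose median was 0.02. In bulk RNA a difference in every cell cannot be told apart from one in some of the cells. The 2 hairpin libraries share the scramble library, so they are not independent of each other. The differences were small for single genes. With CDK16-sh1, 1 of 78 was at least 2-fold higher (1.28%, against 4.33% of all tested genes) and 0 were at least 2-fold lower (against 6.86%). With CDK16-sh2, 3 were at least 2-fold higher (3.85%, against 2.20%) and 2 at least 2-fold lower (2.56%, against 7.62%). Scaling by library totals in place of TMM moved the median of all tested genes with CDK16-sh2 to -0.18 and that of the 78 genes to 0.18, with 59 of 78 above scramble shRNA, so the distance between them was 0.36 in place of 0.35.

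**Figure D1:**
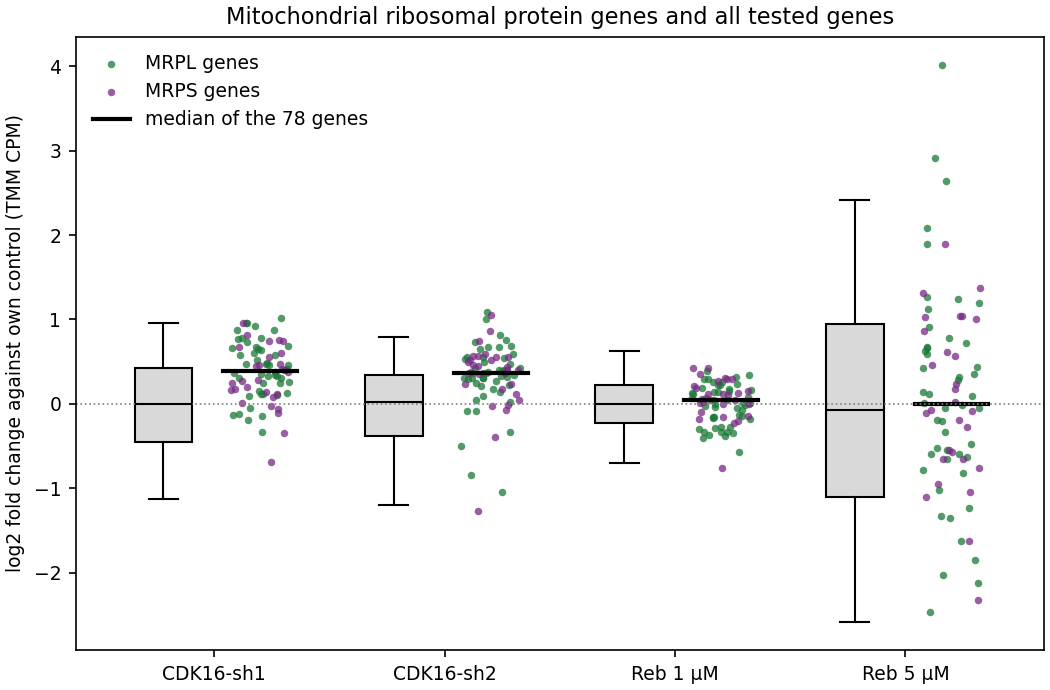
Log2 fold changes of the 78 mitochondrial ribosomal protein genes (points; green MRPL, purple MRPS; black line, their median) beside all tested genes (grey box, quartiles and median; whiskers, 5th to 95th percentile) in each treated library against its own control. The points sit mostly above 0 with both hairpins (67 of 78 each), straddle 0 closely at 1 μM Reb and spread from -2.47 to 4.02 at 5 μM Reb.

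MRPS23, a mitochondria-specific small-subunit protein, was the gene closest to a doubling with both hairpins. It stood at 9.15 RPKM with scramble shRNA, 17.5 with CDK16-sh1 and 16.6 with CDK16-sh2, and at 13.1, 13.7 and 4.20 RPKM with DMSO, 1 μM and 5 μM Reb. Its log2 fold changes were 0.96 [0.88, 1.05] and 1.05 [0.97, 1.15]. Both hairpin libraries were above scramble shRNA, and the 5 μM library was the lowest of the drug experiment. In the deposited tables MRPS23 lies at chr17:57834781-57850056 (GRCh38, minus strand) and shares no exonic bases with another gene.

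With CDK16-sh1 the highest genes besides MRPS23 were MRPL53, MRPL36 and MRPL52. MRPL53 stood at 11.5, 22.9 and 13.3 RPKM with scramble shRNA, CDK16-sh1 and CDK16-sh2, a log2 fold change of 1.02 [0.86, 1.20] with CDK16-sh1. Its exons overlap those of CCDC142 on the same strand, a gene whose counts were 538, 1194 and 632 in the same libraries. MRPL36 stood at 11.4, 21.9 and 11.5 RPKM, and MRPL52 at 15.0, 28.7 and 21.3 RPKM. MRPL53 and MRPL36 were thus high mainly in the CDK16-sh1 library, and MRPL52 in both. The lowest were MRPS35 (18.7, 11.3 and 23.0 RPKM), MRPS30 (4.11, 3.15 and 4.74 RPKM), MRPL46 (8.06, 6.26 and 8.61 RPKM) and MRPL19 (8.20, 7.03 and 10.0 RPKM). All 4 lay below scramble shRNA with CDK16-sh1 (log2 fold changes -0.69, -0.35, -0.33 and -0.19) and above it with CDK16-sh2 (0.49, 0.40, 0.29 and 0.49). MRPS30 is, despite its symbol, a protein of the large subunit.

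With CDK16-sh2 the highest were MRPL32, MRPS23, MRPL48 and MRPS18C. MRPL32, a large-subunit protein of bacterial descent, stood at 14.6, 17.2 and 27.1 RPKM with scramble shRNA, CDK16-sh1 and CDK16-sh2 (log2 fold change 1.09 [1.00, 1.19] with CDK16-sh2). MRPL48 stood at 6.97, 8.78 and 12.2 RPKM (1.01 [0.88, 1.14]), and MRPS18C, the member of the 3-gene MRPS18 family closest to the bacterial protein, at 9.44, 9.80 and 14.9 RPKM (0.86 [0.75, 0.96]). In these 3 genes the CDK16-sh1 library lay between scramble shRNA and CDK16-sh2. The lowest were MRPS33 (3.83, 4.15 and 1.38 RPKM; -1.27 [-1.52, -1.04]), MRPL45 (22.4, 20.1 and 9.41 RPKM; -1.05 [-1.22, -0.89]), MRPL18 (26.2, 32.4 and 12.7 RPKM; -0.85 [-1.01, -0.69]) and MRPL20 (13.3, 18.7 and 8.18 RPKM; -0.50 [-0.65, -0.36]). For these 4, CDK16-sh2 was the lowest of the 3 libraries, and MRPL45, which holds the ribosome at the inner membrane, was the only one that also lay below scramble shRNA with CDK16-sh1. Compared directly, 4 of 78 genes differed by at least 2-fold between the hairpins (5.13%, against 15.2% of all tested genes): MRPS33, MRPL18 and MRPL20 were lower and MRPS35 was higher with CDK16-sh2.

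The medians of the genes with MRPL and with MRPS symbols lay close together. The symbols do not sort strictly by subunit, since MRPS18A and MRPS30 are large-subunit proteins and MRPS36 is now placed outside the ribosome. For CDK16-sh1 and CDK16-sh2 in turn, the 49 MRPL genes had medians of 0.41 and 0.37 and the 29 MRPS genes 0.28 and 0.40, with 43 of 49 and 24 of 29 above scramble shRNA in each library. Grouped by the universal names that RefSeq lists for 75 of the 78, the 44 proteins shared with bacteria had medians of 0.41 and 0.38 and the 31 mitochondria-specific ones 0.35 and 0.37. The standard deviation over the 78 single genes was 0.35 and 0.40, which does not measure the uncertainty of a difference between medians. These distances were not tested.

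In the pooled test, in which both hairpin libraries were taken as 1 group against the single scramble library (edgeR quasi-likelihood, with the difference between the hairpins standing in for replicate spread), 0 of 78 genes passed an adjusted p of 0.05 and a 2-fold change, against 0.0% of all 15295 tested genes. At an unadjusted p under 0.05, 0 of the 78 and 382 of all genes (2.5%) remained, and DESeq2 called 0 of 78 after adjustment and had 1 at an unadjusted p under 0.05 (1.28%, against 1.52% of all tested genes). MRPS23 had the smallest edgeR p-value of the 78 (adjusted p = 1). GC content moved with the CDK16-sh1 result: the log2 fold change correlated with exonic GC content over the 78 genes (Pearson r = 0.40, across genes of the same 2 libraries) and over all genes with a GC value (r = 0.44, n = 15161), while the correlations with CDK16-sh2 were -0.06 and 0.12. With the trends on GC content and exon length removed, the medians of the 78 genes were 0.34 and 0.38.

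**Figure D2:**
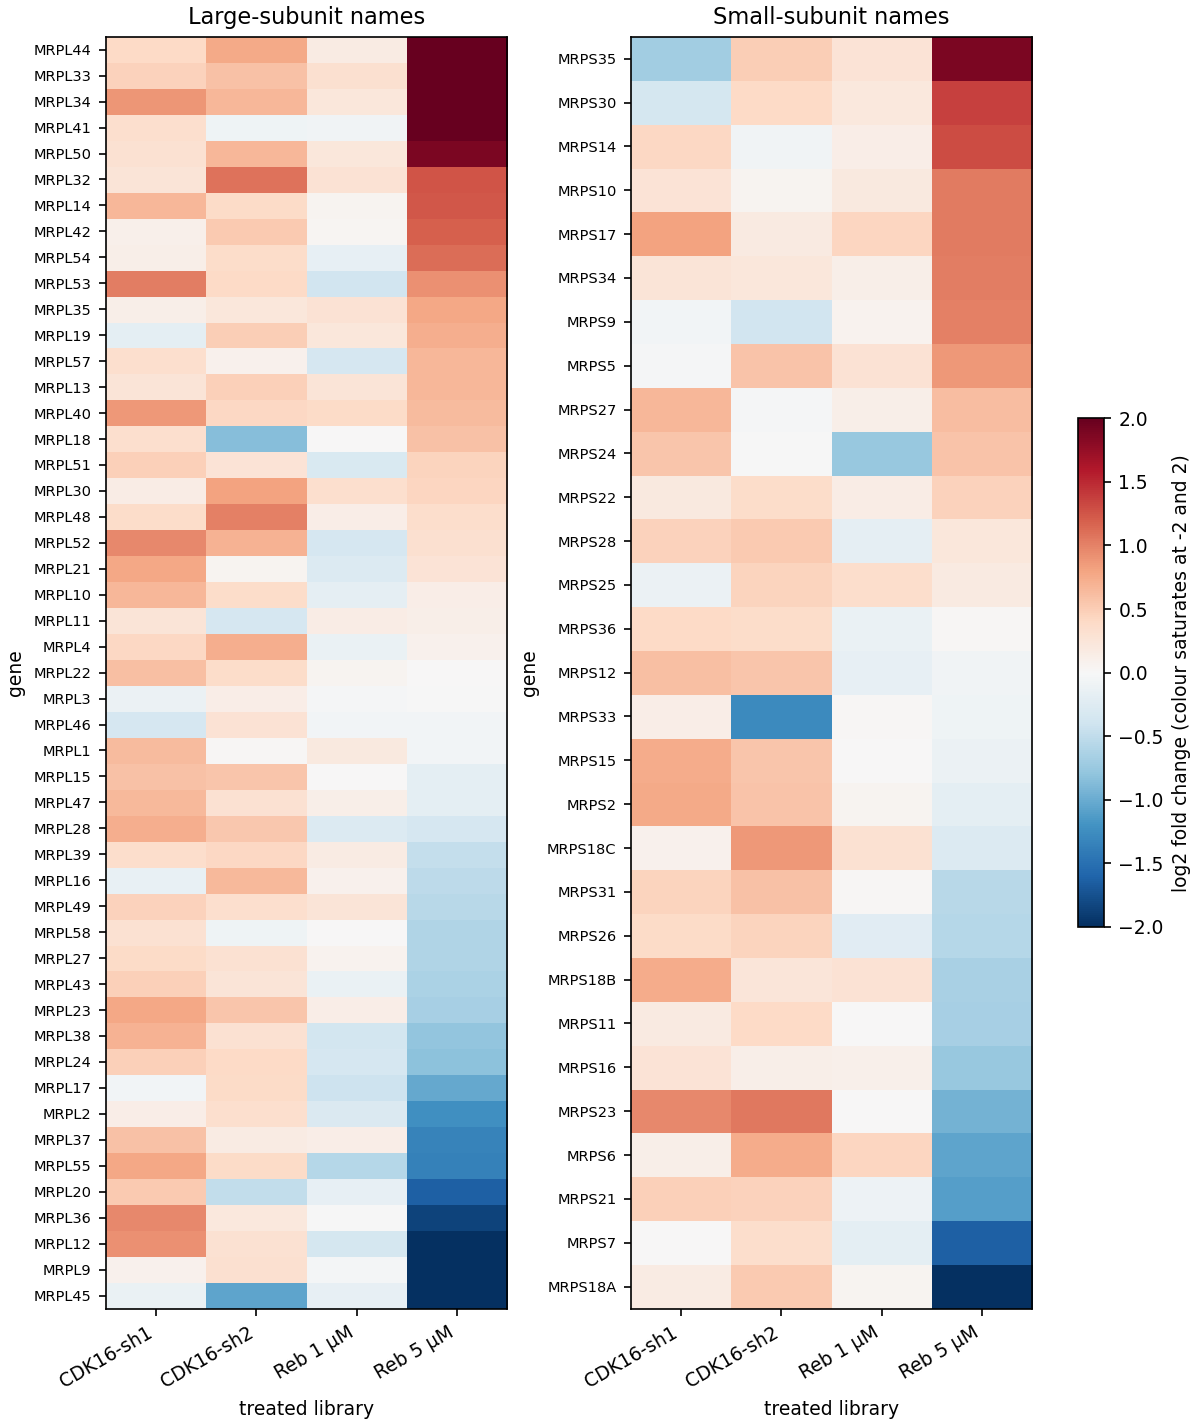
Log2 fold change against the own control for each of the 78 genes (rows; MRPL left, MRPS right, ordered by the value at 5 μM Reb) in the 4 treated libraries (columns). Red is above and blue below the control, and the colour saturates at -2 and 2. The hairpin columns are mostly pale red with few blue cells (11 of 78 each), the 1 μM column is the palest, and the 5 μM column runs from dark red (MRPL44) to dark blue (MRPL45).

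At 1 μM Reb the mitochondrial ribosomal protein genes stayed close to DMSO. Their median log2 fold change was 0.05, and 45 of 78 were above DMSO (57.7%, against 50.2% of all tested genes, whose median was 0.00). At least 2-fold lower were 0 of 78, against 1.92% of all tested genes, and at least 2-fold higher were 0, against 1.28%. The lowest was MRPS24, with 9.10 RPKM in DMSO, 5.55 at 1 μM and 8.36 at 5 μM, a log2 fold change of -0.76 [-0.90, -0.63] at 1 μM. Its exons overlap the read-through gene URGCP-MRPS24 on the same strand, which had 1090, 828 and 960 counts. It was followed by MRPL55 (4.98, 3.46 and 1.20 RPKM), MRPL17 (26.7, 20.9 and 8.14 RPKM) and MRPL53 (8.08, 6.42 and 9.44 RPKM). MRPL55 and MRPL17 were lower again at 5 μM, and MRPS24 and MRPL53 were not. The highest were MRPS17 (5.56 RPKM in DMSO and 7.78 at 1 μM), MRPS6 (7.96 and 11.1 RPKM), MRPL40 (11.2 and 15.3 RPKM) and MRPS25 (18.8 and 24.9 RPKM), with log2 fold changes of 0.43, 0.43, 0.39 and 0.35. At 5 μM these genes had 1.04, -1.05, 0.63 and 0.18, so MRPS6 went to the other side of DMSO. MRPS17 and MRPS6 share same-strand exonic bases with other genes, among them RP11-15K19.2 (663, 877 and 563 counts) and AP000320.7 (800, 1065 and 181 counts). The correlation with GC content had the opposite sign to that with CDK16-sh1 (r = -0.41 over the 78 genes and -0.30 over 15509 genes).

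At 5 μM Reb the genes spread widely on both sides of DMSO. The median log2 fold change was 0.00 with 39 of 78 above and 39 below DMSO (48.3% of all tested genes were above, and their median was -0.07), but 13 were at least 2-fold lower (16.7%, against 27.2%) and 16 at least 2-fold higher (20.5%, against 23.6%). The standard deviation over the 78 genes was 1.18, and over all tested genes 1.59. The 5 μM library stood apart in composition, with 3.00% of its counts on the 2 mitochondrial rRNAs against 0.390% with DMSO, and its TMM factor was 0.718 against 1.159. Under scaling by library totals the median of all tested genes was -0.75 and that of the 78 genes -0.69. Of the 78, 29 were then at least 2-fold lower and 6 at least 2-fold higher, so the balance of higher and lower genes rests on the scaling. The share of all tested genes past 2-fold under that scaling is not given here. The distance of the 78 genes from all genes was 0.07 under TMM and 0.06 under library totals.

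MRPL44, a protein of the ribonuclease III fold in the large subunit, was the highest at 5 μM. It stood at 5.80 RPKM with DMSO, 6.77 at 1 μM and 58.6 at 5 μM, and at 13, 16.8 and 19.3 RPKM with scramble shRNA, CDK16-sh1 and CDK16-sh2. The 5 μM value lay far above the other 5 libraries, with 3856 counts against 510 in DMSO. The log2 fold change was 4.02 [3.89, 4.16] (16.2-fold), and 3.33 under library totals. An antisense gene with overlapping exons, AC073641.2, had 18, 36 and 75 counts, far fewer than MRPL44 in each library. The gene lies at chr2:223957404-223967714 (GRCh38, plus strand).

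MRPL33 and MRPL34, small basic proteins of bacterial descent, and MRPL41 were next. MRPL33 stood at 10.9, 14.1 and 51.2 RPKM with DMSO, 1 μM and 5 μM (2.91 [2.81, 3.03]). BRE, whose exons overlap it on the same strand, had 243, 242 and 303 counts in these libraries (log2 fold change 1.42 at 5 μM). MRPL34 stood at 17.9, 21.6 and 69.1 RPKM (2.64 [2.55, 2.72]), while ABHD8, whose exons overlap it on the opposite strand, went from 611 counts with DMSO to 47 at 5 μM. MRPL41 stood at 11.6, 11.4 and 30.5 RPKM (2.08 [1.96, 2.22]). In all 3 the 5 μM library was the high one and the 1 μM library lay near DMSO. For MRPL41 the 5 μM level was still below the 46.0 RPKM of the scramble library. MRPS35 (17.3, 21.6 and 39.9 RPKM) and MRPL50 (2.79, 3.36 and 6.44 RPKM) followed, each with a log2 fold change of 1.89.

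MRPL45 was the lowest at 5 μM, with 16.7 RPKM in DMSO, 15.4 at 1 μM and 1.85 at 5 μM (-2.47 [-2.76, -2.21], 5.54-fold lower). It was also the only one of the 78 at least 2-fold lower in libraries of both experiments (CDK16-sh2 and 5 μM Reb). Under TMM scaling, MRPL32 was the only one at least 2-fold higher in both of these libraries. By RPKM, MRPL32 rose less than 2-fold in each, from 14.6 to 27.1 with CDK16-sh2 and from 14.2 to 21.1 at 5 μM. MRPL45 stayed more than 2-fold lower by RPKM, from 22.4 to 9.41 and from 16.7 to 1.85. MRPL32 shares exonic bases with PSMA2 on the opposite strand. PSMA2 had 1346, 1006 and 1734 counts with scramble shRNA, CDK16-sh1 and CDK16-sh2, and a log2 fold change of 1.14 at 5 μM. MRPS18A, which like MRPS30 is placed in the large subunit, stood at 39.2, 42.4 and 4.86 RPKM (-2.32 [-2.52, -2.13]). MRPL9 stood at 22.5, 22.7 and 3.21 RPKM (-2.12 [-2.33, -1.92]), and MRPL12 at 61.1, 49.8 and 9.25 RPKM (-2.03 [-2.20, -1.88]). In these 4 the 5 μM library was low and the 1 μM library lay within 0.35 of DMSO on the log2 scale. MRPS18A, MRPL9 and MRPL12 share exonic bases with other genes whose log2 fold changes were also low: RSPH9 (-2.82, opposite strand), OAZ3 (-2.06, opposite strand) and RP13-1032I1.10 (-1.85, same strand). MRPL45 (chr17:38297023-38323218, GRCh38, plus strand) has no such overlap. Among the 38 genes with no exon overlap, 5 were at least 2-fold lower (13.2%, against 27.2% of all tested genes) and 8 at least 2-fold higher (21.1%, against 23.6%).

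**Figure D3:**
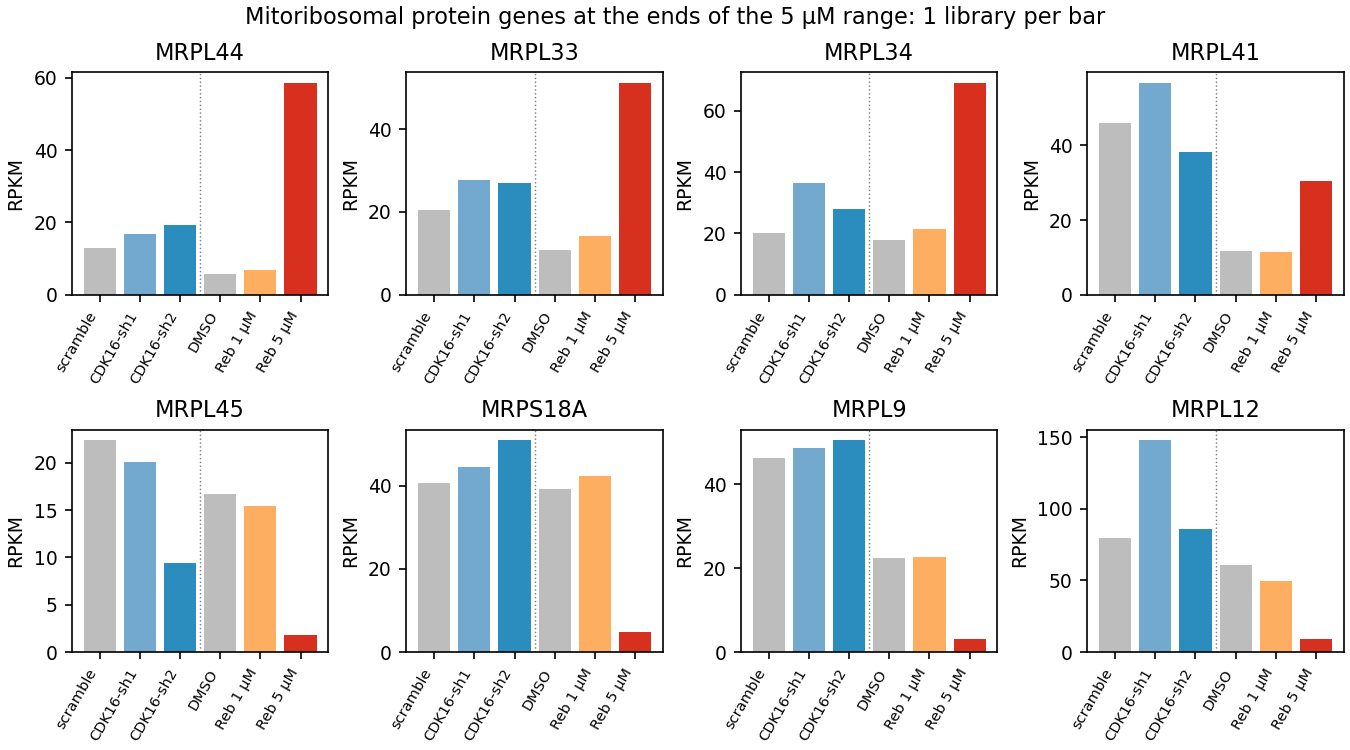
RPKM in each of the 6 libraries (bars, 1 library each; knockdown experiment left and drug experiment right of the dotted line; each panel has its own axis from 0) for the 4 highest (top) and 4 lowest (bottom) genes by log2 fold change at 5 μM Reb. The 5 μM bar is the tallest of the 6 for MRPL44, MRPL33 and MRPL34 and the shortest for the 4 lower genes, while the 1 μM bar stays near DMSO.

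The 3 genes of the MRPS18 family differed from each other. At 5 μM, MRPS18A was 4.98-fold lower, MRPS18B went from 40.7 to 16.0 RPKM (-0.65 [-0.75, -0.56]) and MRPS18C from 17.8 to 9.13 RPKM (-0.28 [-0.36, -0.19]). With CDK16-sh1 the order was MRPS18B 0.74, MRPS18A 0.16 and MRPS18C 0.08, and with CDK16-sh2 it was MRPS18C 0.86, MRPS18A 0.52 and MRPS18B 0.24. The intervals of neighbours in these orders overlapped only for MRPS18A and MRPS18C with CDK16-sh1.

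Some of the other genes have well-defined places or tasks. MRPL3, a core protein of the large subunit, had log2 fold changes of -0.12, 0.14, -0.03 and -0.01 in the CDK16-sh1, CDK16-sh2, 1 μM and 5 μM libraries. MRPS12, a protein of the decoding centre, had 0.60, 0.56, -0.16 and -0.07, although SARS2, which overlaps it on the opposite strand, had -2.66 at 5 μM. MRPS2 had 0.76, 0.57, 0.05 and -0.19, and MRPS22 had 0.20, 0.37, 0.15 and 0.46. MRPL58 (also called ICT1), which frees stalled ribosomes, had 0.30, -0.08, 0.01 and -0.60. MRPS36, now assigned to the 2-oxoglutarate dehydrogenase complex and not to the ribosome, had 0.40, 0.36, -0.14 and 0.02. Of the most abundant genes, MRPS34 and MRPS10 were at least 2-fold higher at 5 μM (1.03 and 1.04), although MRPS34 went only from 165 to 208 RPKM on the scale of library totals. Genes with an MRPS symbol, which include MRPS18A, MRPS30 and MRPS36, took 49.6%, 52.4% and 49.9% of the counts on the 78 genes with DMSO, 1 μM and 5 μM Reb.

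Treated as 1 group against DMSO, the 2 drug libraries gave 0 of 78 genes past an adjusted p of 0.05 and a 2-fold change (edgeR quasi-likelihood), against 0.0767% of all 15655 tested genes. DESeq2 also called 0 of 78, and each tool had 1 of 78 at an unadjusted p under 0.05 (1.28%, against 1.46% of all tested genes with edgeR and 1.99% with DESeq2). With edgeR it was MRPL44 (edgeR adjusted p = 1). This test counts the large distance between the doses as spread. With log2(dose + 1) as a linear term, 4 of 78 passed (5.13%, against 10.3% of all tested genes): MRPL44, MRPL33 and MRPL34 higher and MRPL45 lower. That fit had 1 library per dose, so its p-values rest on how near these libraries lie to the chosen line and not on replicate spread. Compared directly, 24 of 78 genes differed by at least 2-fold between 5 μM and 1 μM (30.8%, against 48.6% of all tested genes).

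The share of all counts that fell on the 78 genes was 0.361%, 0.459% and 0.408% with scramble shRNA, CDK16-sh1 and CDK16-sh2, and 0.312%, 0.334% and 0.250% with DMSO, 1 μM and 5 μM Reb. The exact 95% binomial intervals, from 0.2485% to 0.2517% at 5 μM and from 0.4562% to 0.4609% with CDK16-sh1, did not overlap between any 2 libraries of an experiment. They cover counting error only and are narrow at this depth, so this says nothing about the variation between cultures. The cytosolic ribosomal protein genes, which build the ribosome that translates these mRNAs, took 2.96%, 4.36% and 3.79% in the knockdown experiment and 2.96%, 2.72% and 4.42% in the drug experiment. For every 100 counts on cytosolic ribosomal protein genes there were 12.2, 10.5 and 10.8 counts on the mitochondrial ones with scramble shRNA, CDK16-sh1 and CDK16-sh2. The corresponding values were 10.5, 12.3 and 5.66 with DMSO, 1 μM and 5 μM Reb. This ratio does not depend on the scaling, and it was lower than in the control with both hairpins and at 5 μM and higher at 1 μM. The cytosolic genes had median log2 fold changes of 0.67, 0.54, -0.18 and 1.26, against 0.39, 0.37, 0.05 and 0.00 for the mitochondrial ones.

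**Figure D4:**
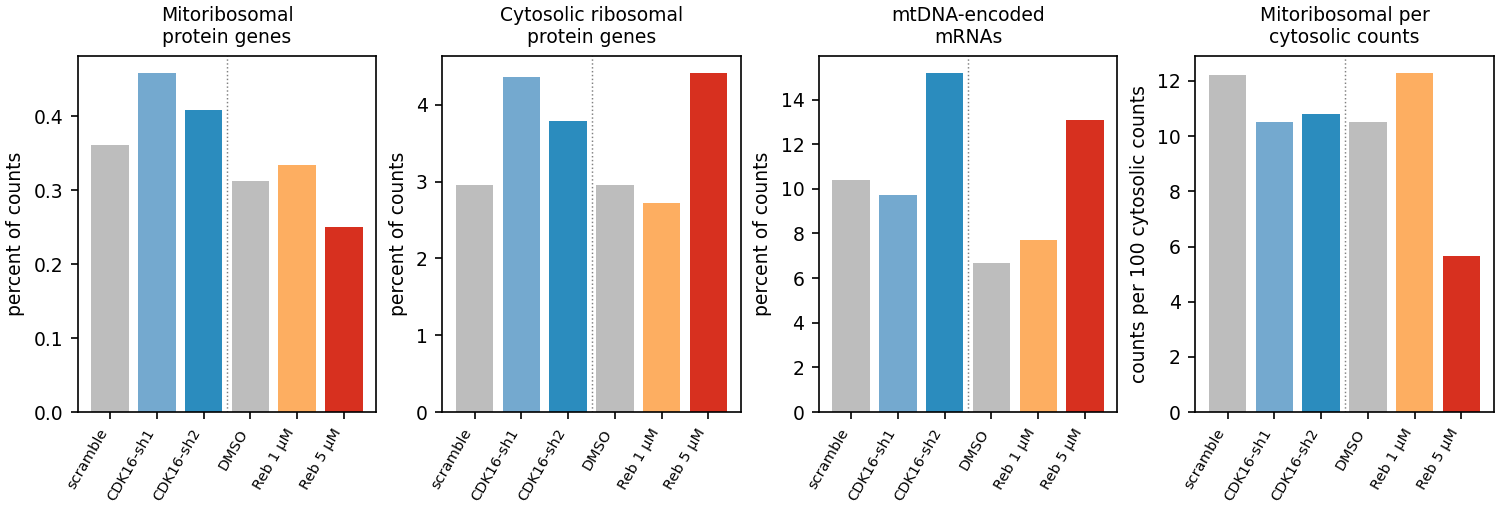
Share of all counts (percent) on the 78 mitochondrial ribosomal protein genes, on cytosolic ribosomal protein genes and on the 13 mtDNA-encoded mRNAs, and counts on the mitochondrial per 100 on the cytosolic ribosomal protein genes, in each of the 6 libraries (1 library per bar, axes from 0). At 5 μM Reb the first share is the lowest of the drug experiment (0.250%) while the other shares are the highest, and the ratio is 5.66 against 10.5 with DMSO.

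The mtDNA-encoded RNAs that the ribosome contains and reads were counted in the same libraries. MT-RNR2 stood at 3360, 2560 and 3920 RPKM with scramble shRNA, CDK16-sh1 and CDK16-sh2, and at 2350, 2810 and 18800 RPKM with DMSO, 1 μM and 5 μM Reb. MT-RNR1 stood at 309, 368 and 390 RPKM, and at 245, 249 and 680 RPKM. MT-RNR2 was thus below scramble shRNA with CDK16-sh1 and above it with CDK16-sh2, and both rRNAs were highest at 5 μM. The 13 mtDNA-encoded mRNAs had median log2 fold changes of -0.05, 0.80, 0.14 and 1.5, with 4, 13, 11 and 13 of 13 above control and 0, 3, 0 and 12 of 13 at least 2-fold higher. For every 100 counts on the 78 genes there were 2890, 2120 and 3710 counts on these mRNAs in the knockdown experiment and 2140, 2300 and 5220 in the drug experiment, so the hairpin libraries lay on opposite sides of scramble shRNA. The libraries were prepared with an mRNA kit, so rRNA counts depend on what that preparation let through, and its part in the result was not tested.

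Other mitoribosome proteins and the nuclear-encoded machinery around the ribosome were counted from fixed lists. DAP3, PTCD3, CHCHD1, AURKAIP1 and GADD45GIP1, which are mitoribosome proteins with other kinds of symbol, had a median log2 fold change of 0.47 with CDK16-sh1 (4 of 5 above control), 0.32 with CDK16-sh2 (5 of 5), -0.09 at 1 μM (2 of 5) and 0.19 at 5 μM (3 of 5). GADD45GIP1, the most abundant, stood at 168, 271 and 213 RPKM with scramble shRNA, CDK16-sh1 and CDK16-sh2, and at 142, 151 and 163 RPKM with DMSO, 1 μM and 5 μM Reb. Of these 5 genes, 0 were past 2-fold in any library.

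The 30 genes of ribosome assembly and rRNA modification had medians of 0.13, 0.24, 0.07 and -0.17 in the CDK16-sh1, CDK16-sh2, 1 μM and 5 μM libraries. At 5 μM, 8 of 30 were at least 2-fold lower (26.7%, against 27.2% of all tested genes) and 4 at least 2-fold higher (13.3%, against 23.6%). TRUB2, a pseudouridine synthase, was the lowest with CDK16-sh1 (4.64 RPKM with scramble shRNA and 1.29 with CDK16-sh1, but 4.08 with CDK16-sh2; -1.81 and 0.01) and at 5 μM (2.57 RPKM with DMSO and 0.169 at 5 μM; -3.20). FASTKD5, which takes part in the processing of mitochondrial mRNA, was the highest at 5 μM (3.70 and 22.4 RPKM; 3.28). ERAL1, the chaperone of MT-RNR1, was the highest with CDK16-sh1 (22.4 and 38.8 RPKM; 0.82), and MRM3, which methylates MT-RNR2, with CDK16-sh2 (17.3 and 27.6 RPKM; 0.87). METTL15 was the lowest with CDK16-sh2 (-0.95). At 1 μM the ends of the list were DDX28 (-0.69) and RBFA (0.56).

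The list of 17 translation factors also held LETM1, OXA1L, LRPPRC and SLIRP, which are not translation factors in the strict sense. Its medians were 0.04, 0.33, 0.10 and -0.03. At 5 μM, 6 of 17 were at least 2-fold lower (35.3%, against 27.2% of all tested genes), with OXA1L among them (-1.53). At least 2-fold higher were 3 of 17 (17.6%, against 23.6%). TACO1, an activator of the translation of MT-CO1, was the lowest there (10.0 RPKM with DMSO and 1.59 at 5 μM; -1.96) and the release factor MTRF1L the highest (13.3 and 24.2 RPKM; 1.55). The elongation factor GFM1 (-0.72) and the initiation factor MTIF3 (0.73) were the ends of the list with CDK16-sh1, GUF1 (-0.63) and MTFMT (0.76) with CDK16-sh2, and OXA1L (-0.43) and GUF1 (0.48) at 1 μM. The list of 22 genes for mitochondrial aminoacyl-tRNAs held synthetases and also GATB, GATC and QRSL1, which are amidotransferase subunits and not synthetases. Its medians were 0.11, 0.25, 0.06 and -0.60. At 5 μM, 7 of 22 were at least 2-fold lower (31.8%, against 27.2% of all tested genes) and 1 at least 2-fold higher (4.55%, against 23.6%). GATC was among the lower ones (-1.16). AARS2 went from 6.08 RPKM with DMSO to 0.303 at 5 μM (-3.61), and GARS, which serves cytosol and mitochondria, from 56.0 to 87.6 RPKM (1.34). The ends of this list were NARS2 (-0.71) and CARS2 (0.79) with CDK16-sh1 and LARS2 (-0.89) and FARS2 (0.84) with CDK16-sh2, and GARS was the highest at 1 μM (0.59). AARS2 and LARS2 lay below the control in each of the 4 treated libraries.

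The 22 genes of mtDNA expression, which include its polymerase, its transcription factors and nuclear regulators of mitochondrial genes, had medians of -0.02, 0.35, -0.04 and -0.02. HSD17B10, a subunit of the mitochondrial ribonuclease P, was the highest with both hairpins: 32.9 RPKM with scramble shRNA, 128 with CDK16-sh1 and 75.5 with CDK16-sh2 (1.99 [1.89, 2.10] and 1.39 [1.29, 1.51]). It stood at 28.1, 33.5 and 13.7 RPKM with DMSO, 1 μM and 5 μM Reb. MYC, a regulator of ribosome genes in cytosol and mitochondria, was the other gene of the list at least 2-fold higher with both hairpins (36.8, 118 and 76.8 RPKM; 1.71 and 1.26), and it was the lowest of the list at 1 μM (32.8 and 19.5 RPKM; -0.80), with 52.9 RPKM at 5 μM. TFB2M was the lowest with CDK16-sh1 (-0.81) and GABPA, which binds the ETS motif, with CDK16-sh2 (-0.37). At 5 μM the ends were ELAC2 (-2.39) and GABPA (7.13 RPKM with DMSO and 14.8 at 5 μM; 1.74), and TEFM was the highest at 1 μM (0.63).

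**Figure D5:**
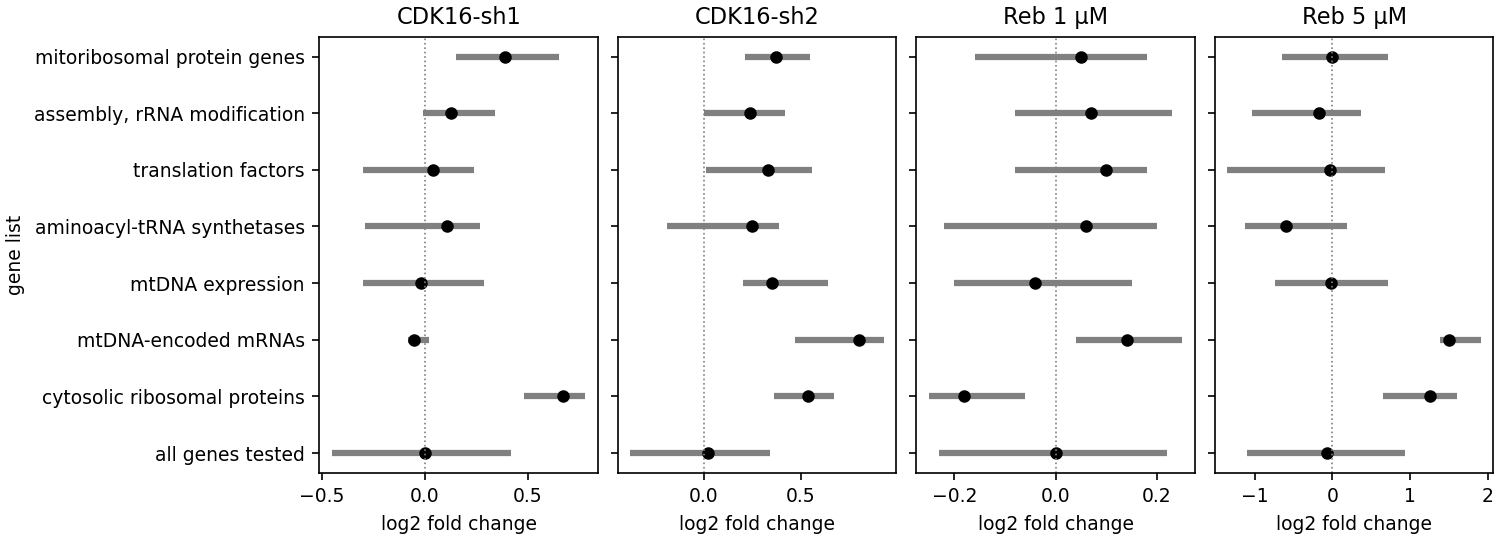
Median (point) and quartiles (bar) of the log2 fold change for each gene list in the 4 treated libraries against their own control; the horizontal scale differs between panels. With the hairpins the medians of the 78 genes (0.39 and 0.37) lie between those of all tested genes (0.00 and 0.02) and those of the cytosolic ribosomal proteins (0.67 and 0.54); at 5 μM Reb the mtDNA-encoded mRNAs (1.5) and cytosolic ribosomal proteins (1.26) lie to the right of 0 and the 78 genes at 0.00.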

How the data were processed

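RNA-seq libraries from MDA-MB-231 cells, 1 per condition, were deposited as raw counts per gene and as RPKM, in 1 pair of tables per experiment. The submitters' processing notes name Trimmomatic, featureCounts, Subread 1.5.1 and GRCh38. The aligner, the gene annotation and the strand setting of the counting were not given in the sources used here, although the library kit was a stranded one. The counts were deposited by the authors without normalisation. The deposited RPKM equal the counts divided by the deposited exon length and the library's total count, so they carry no correction for composition. Reads of genes that share exonic bases may be lost or assigned to either gene. By the deposited exon coordinates, 15 of the 78 genes share exonic bases with another gene on the same strand and 29 on the opposite strand (40 in all).

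Log2 fold changes were computed from TMM-scaled CPM (edgeR 4.0.16 in R 4.3.3, prior count 2) over genes averaging 1 CPM or more. No single treated library can be tested against a single control. A pooled test took both treated libraries of an experiment as 1 group against the control (edgeR quasi-likelihood, Benjamini-Hochberg adjusted p of 0.05 and 2-fold, the study's stated thresholds). The spread it used came only from the distance between hairpins or doses and not from replicate cultures. It was run over all genes. It was also run on simulated counts in which 200 genes changed by the same amount in both treated libraries. The real hairpins and doses differ from each other, so that run does not show how the test performs on these data. DESeq2 1.42.0 and other scalings, filters and thresholds were alternatives, with trends on GC content and length taken out by mgcv 1.9.3. Exon overlaps and spans came from the exon coordinates deposited with the counts. GC content came from GENCODE 29, in which all 78 genes were found by name, 77 with the same start and end.

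Genes were named by rule: of genes averaging 5 CPM or more, the 4 highest and 4 lowest log2 fold changes in each treated library, the 5 most and 5 least abundant in the controls, genes of defined role, and the ends of each related list in each treated library (1 of these is not reported here). MRPL50 and MRPS35 were named at 5 μM, and the overlapping genes beside the members they touch, after their values were seen. The 78 genes and the lists were chosen with earlier results of these data known.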

Additional observations from a re-analysis of the deposited data

How the results depend on the processing

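The medians of the 78 genes with the hairpins stayed above 0 under every alternative run. With CDK16-sh1 the median was 0.36 under library totals, 0.36 from the deposited RPKM, 0.37 without the filter on low counts and 0.34 with GC and length trends removed. With CDK16-sh2 it was 0.18 under library totals and 0.18 from RPKM. At 1 μM Reb it was 0.10 under library totals, 0.09 from RPKM, 0.04 with DESeq2 size factors, 0.04 without the filter, 0.03 with trends removed, 0.01 without genes that overlap another gene and 0.04 for mitoribosome proteins only. At 5 μM Reb it was -0.69 under library totals, -0.68 from RPKM, 0.06 with DESeq2 size factors, -0.20 without the filter, -0.09 with trends removed and -0.03 without overlapping genes, so its sign rests on the scaling.

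For counts at least 2-fold higher with CDK16-sh1, library totals and RPKM each gave 0 of the 78 genes and removing trends gave 2. Leaving out overlapping genes gave 0 of the 38 genes left. With CDK16-sh2, library totals and RPKM each gave 0 higher. At 5 μM Reb, library totals and RPKM each gave 29 lower and 6 higher, and removing trends gave 9 higher. Leaving out overlapping genes gave 5 lower and 8 higher of the 38 genes left (13.2% and 21.1%, against 16.7% and 20.5% of the 78). Under TMM 27.2% of all tested genes were lower and 23.6% higher, and their shares under the other scalings are not given here. At a 1.5-fold threshold there were 1 lower and 23 higher with CDK16-sh1 (1.28% and 29.5%, against 18.8% and 16.5% of all tested genes), 14 higher with CDK16-sh2 (17.9%, against 11%), 1 lower at 1 μM (1.28%, against 7.19%), and 23 lower and 25 higher at 5 μM (29.5% and 32.1%, against 36.7% and 33.1%). No named gene past 2-fold changed sign under another scaling, filter, prior count or trend removal. The pooled tests called 0 of the 78 under each alternative except log2(dose + 1) as a linear term for Reb, which called 4.

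No paired analysis was possible because each condition had 1 library. No library was left out in turn, since a treated library without its partner leaves the pooled test no residual degrees of freedom. Intervals from counting say nothing about the variation between cultures, so the size of a difference that replicate cultures would give is unknown.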

Other observations

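The values at 5 μM Reb are described here for the mitochondrial ribosomal protein genes on chromosomes 1, 2 and 17, picked after the values of all chromosomes were seen. Other chromosomes are not given, and no difference between chromosomes was tested. All 8 of those on chromosome 2 were above DMSO under TMM scaling, with a median log2 fold change of 0.89 (range 0.43 to 4.02). By RPKM, which is scaled by library totals, MRPL30 was below DMSO (6.1 with DMSO and 5.1 at 5 μM). Of 998 tested genes on chromosome 2, 51.9% were above DMSO, with a median of 0.07. Of 8 on chromosome 1, 7 were below DMSO, with a median of -1.22 against -0.10 for 1539 tested genes there, of which 806 were below. Of 8 on chromosome 17, 7 were below, with a median of -0.87 against -0.46 for 1015 tested genes, of which 606 were below. At 1 μM the medians of the same groups were 0.26, -0.07 and -0.17. Scaling by library totals lowers all of these log2 fold changes at 5 μM alike, by the shift of the library.

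The mitochondrial ribosomal protein genes had a median annotated exon length of 2501 bases, against 4350 and 4319 for all tested genes of the knockdown and drug experiments, and a median GC content of 47.7% against 48.5%. Log2 exon length correlated with the log2 fold change over the 78 genes by -0.27 with CDK16-sh1, 0.16 with CDK16-sh2, 0.23 at 1 μM and 0.05 at 5 μM Reb (Pearson r across genes, which are not independent replicates). Between the experiments, which share no library, the log2 fold changes of the 78 genes correlated by -0.25 (CDK16-sh1 and 1 μM), -0.08 (CDK16-sh1 and 5 μM), 0.18 (CDK16-sh2 and 1 μM) and 0.16 (CDK16-sh2 and 5 μM).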
